A study of Mus musculus with 16 samples.

Results

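The kinase cascade from Raf through Mek to Erk was followed at the level of its own mRNAs in mouse embryonic stem cells. The genes were the Raf kinases Araf and Braf, the scaffold Ksr1, the Mek kinases Map2k1 and Map2k2, the Erk kinase Mapk3, and Esr1, the gene of estrogen receptor alpha. They were chosen by name for their place in the cascade, with Esr1 added as a possible reporter of the fusion protein that these cells carry. They are 7 of 20972 genes named on the array, and all 7 were among the 15658 genes tested.

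In this cascade a growth factor receptor loads Ras with GTP, Ras brings Raf kinases to the membrane, Raf phosphorylates Mek, and Mek phosphorylates Erk. Erk then acts on other kinases and on transcription factors. In mouse embryonic stem cells the cascade is known for being driven by FGF4, for feedback genes such as those of the Sprouty and Dusp families, and for moving cells out of naive pluripotency.

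The cells were E14tg2a, a feeder-independent embryonic stem cell line, grown in serum and LIF on gelatin. All groups carried a c-Raf fusion that is constitutively active once 4-hydroxytamoxifen (4OHT) induces it, per the series' design text. The 0h group had 24 hours of 250 nM PD173074, an inhibitor of FGF receptors, and no 4OHT. The 30m, 1h, 2h, 4h, 8h and 24h groups had the same pretreatment and then 250 nM 4OHT for 0.5, 1, 2, 4, 8 or 24 hours with the inhibitor still present. The DMSO group had vehicle only. Each of the 8 groups had 2 arrays, so n = 2 in every value below. The labels do not say whether replicates were separate cultures, nor whether the line was 1 clone. The p-values are thus read against the scatter between the 2 arrays of a group, and that scatter may be technical only. Only fits with the replicate number as a block take out the difference that replicates 1 and 2 share over all groups. Cells given 4OHT without the fusion were not analysed here, so an effect of the fusion and one of 4OHT itself cannot be told apart. The groups with 4OHT also spent longer under the inhibitor and in culture than 0h. No group had the inhibitor alone for a matched time, so in every change from 0h these cannot be told apart from 4OHT either.

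Each array's sample is named in 2 places, and for 8 of 16 arrays they differ: the value table's column headings point to another sample than the scanner file's attachment. The headings are used here. With them the pooled SD between replicates of Egr1, an immediate target of Erk signalling, was 0.64 on the log2 scale, against 3.03 with the attachment. Under the headings each of 2 slides holds 1 replicate of every group, so the replicate number and the slide are the same division. The share of spots well above background was 54.9% to 60% on the replicate 1 slide and 61.5% to 67.2% on the other. The arrays showed the treatments: Spry4, a feedback inhibitor, fell by 3.39 ± 0.38 (SE) from DMSO to 0h (limma adjusted p = 0.00328), and Egr1 was 5.38 ± 0.57 higher at 2h than at 0h (limma adjusted p = 0.00786). All 8 embryonic stem cell markers examined were well above background on all 16 arrays. Their mean log2 level was 5.64 to 5.87 at 0h and 4.74 to 5.36 at 24h, where Nanog, Esrrb and Zfp42 were called lower and Utf1 higher. Of 6 primitive endoderm markers, 2 were higher at 24h than at 0h (Gata6 by 4.77 ± 0.54, and Pdgfra at least 2.71-fold). The other 4 were not called: the mean of Sox17 was higher, and those of Gata4, Sox7 and Dab2 were lower. With the replicate number as a block, 1 of the 6 was called lower. The mean of all 6 markers went from between -4.2 and -3.99 to between -3.34 and -3.33, and their median change was 0.3. Of 7 fibroblast markers, Thy1 was higher at 24h (2.34 ± 0.21), while Postn and Lum were well above background on 0 arrays. The other 4 were not called: the means of Col1a2 and Col3a1 were higher, and those of Col1a1 and Dcn were lower. With the block 1 fibroblast marker was called higher and 1 lower, and the median change of those tested was 0.34. Over all genes tested, 10.8% were called higher and 12.9% lower at 24h against 0h, and 39.5% were called with the block. Of 3 blood markers on the array 0 were called at 24h, and Hbb-bt was well above background on 0 arrays. The part of these shifts in the results below was not tested. In RNA from whole cultures, fewer cells of a type and less RNA per cell cannot be told apart.

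Every level below is a log2 processed signal from which the 75th percentile of its array was subtracted, taken from the probe with the highest mean signal of the gene. Every change is a difference of 2 such levels. A change was called when its limma adjusted p over the 15658 genes was under 0.05. A negative level lies below the 75th percentile of its array, and levels of different probes have no common scale. Each gene is therefore compared only with itself. Where arrays of groups are said to lie apart, this describes those arrays. The share of all genes with such a gap was not counted.

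**Figure D1:**
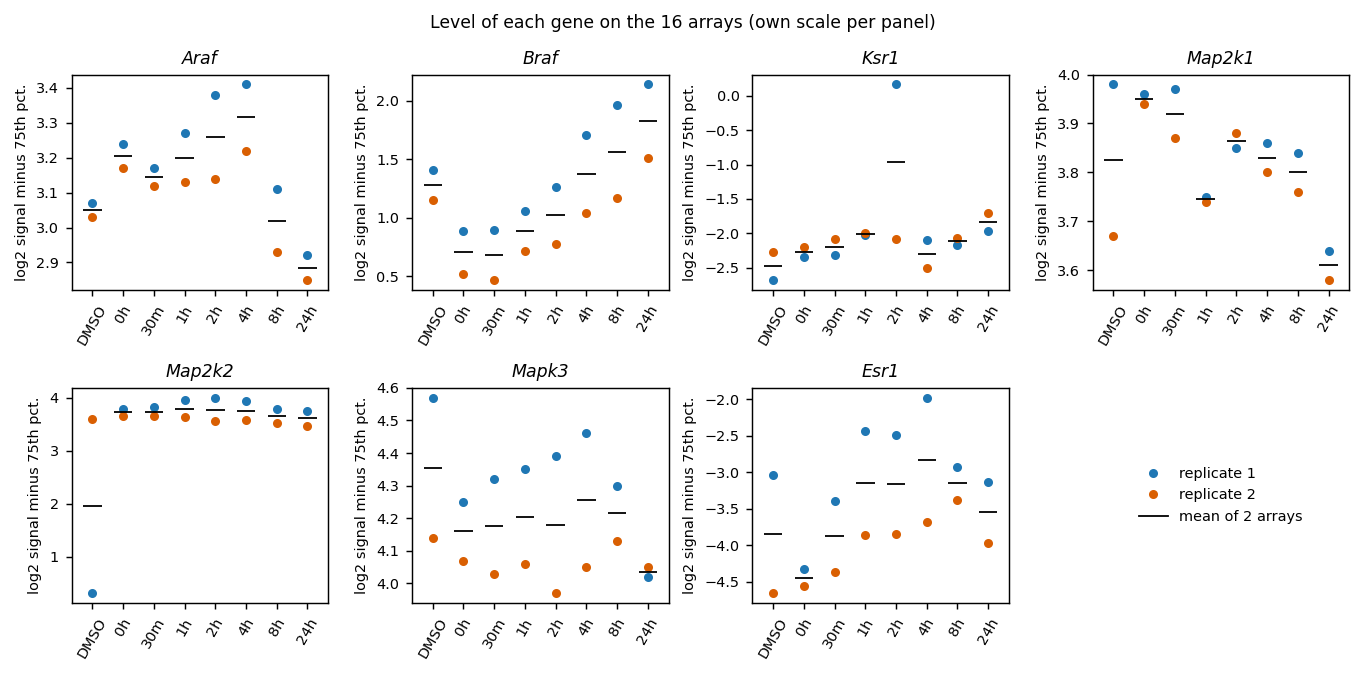
Level of each of the 7 genes on all 16 arrays, as log2 signal minus the 75th percentile of the array, by group on the x axis with blue for replicate 1 and orange for replicate 2. The bars mark the mean of 2 arrays and each panel has its own scale. Braf is lowest at 0h and 30m and highest at 24h, whereas single arrays set the extremes of Ksr1 (2h, 0.17) and Map2k2 (DMSO, 0.31).

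Braf is the Raf kinase with the highest basal activity and the usual partner that Ras activates first. It was lower in cells under the FGF receptor inhibitor than in vehicle-treated cells on both arrays, and it stood higher at each later time of 4OHT from 1h on. The vehicle arrays were at 1.41 and 1.15, and the 0h arrays at 0.89 and 0.52. After 30m of 4OHT the level was 0.90 and 0.47, and after 1h it was 1.06 and 0.72. It was 1.26 and 0.78 at 2h, 1.71 and 1.04 at 4h, and 1.96 and 1.17 at 8h. The 24h arrays were the highest of their slides, at 2.14 and 1.51. All arrays at 4h, 8h and 24h lay above both 0h arrays, and replicate 1 lay above replicate 2 in all 8 groups. In the order of the group means (24h, 8h, 4h, DMSO, 2h, 1h, 0h, 30m), the arrays of every pair of neighbours overlapped.

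Of the 7 genes, Braf was the 1 called at 24h against 0h, where 23.7% of all genes tested were called (10.8% as higher). It rose by 1.12 ± 0.34 on the log2 scale (95% interval 0.35 to 1.88), which is 2.17-fold (limma adjusted p = 0.0393). Leaving out 1 array leaves the slides unequal between the groups, and for Braf replicate 1 lay above replicate 2 in every group. In these fits without the block, the call depended on single arrays. It was lost without 0h replicate 1 (1.30, adjusted p = 0.0778), without 0h replicate 2 (0.93, adjusted p = 0.194) and without 24h replicate 1 (0.80, adjusted p = 0.261), and it held without 24h replicate 2 (1.43, adjusted p = 0.035). It was also lost in 6 other settings, among them median centring (1.02, adjusted p = 0.227) and the mean of all Braf probes (1.11, adjusted p = 0.0518). With the replicate number as a block, which removes the gap between the slides, the adjusted p was 0.000231, with 39.5% of all genes called. Within the slides the change was 1.25 and 0.98. With samples as attached to the scanner files the change was -0.19 ± 0.49 (adjusted p = 0.9), so its direction rests on the value table's headings.

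Earlier changes of Braf passed the threshold in the blocked fit only. At 4h it was 0.67 ± 0.34 above 0h (adjusted p = 0.337, 0.0129 with the block), by 0.82 and 0.51 within the slides. At 8h the change was 0.85 ± 0.34 (95% interval 0.09 to 1.62, adjusted p = 0.175, 0.00334 with the block). At 30m, 1h and 2h the changes were -0.02, 0.18 and 0.31, with no call in either fit.

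From DMSO to 0h the change of Braf was -0.57 ± 0.34 (95% interval -1.34 to 0.19, adjusted p = 0.439), and with the block the adjusted p was 0.0209. It was -0.52 and -0.63 within the slides. At 24h Braf stood 0.54 ± 0.34 above DMSO (adjusted p = 0.372, 0.0173 with the block). The DMSO level thus lay between those of 0h and 24h on each slide. The 3 comparisons share arrays and are given side by side, not as support for each other.

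A second probe of Braf on the array, A_55_P2170787, followed the same course at a dimmer signal. Its arrays were at -2.18 and -2.12 in DMSO, -2.72 and -2.73 at 0h, and -1.24 and -1.99 at 24h. The 24h arrays again lay above those of 0h. Its change from 0h to 24h was 1.11 ± 0.41, against 1.12 for the brighter probe, and it was called with the block only (adjusted p over all probes = 0.105, 0.0119 with the block). From DMSO to 0h it was -0.58 ± 0.41. Both probes come from the same hybridisations, so they are not independent samples.

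**Figure D2:**
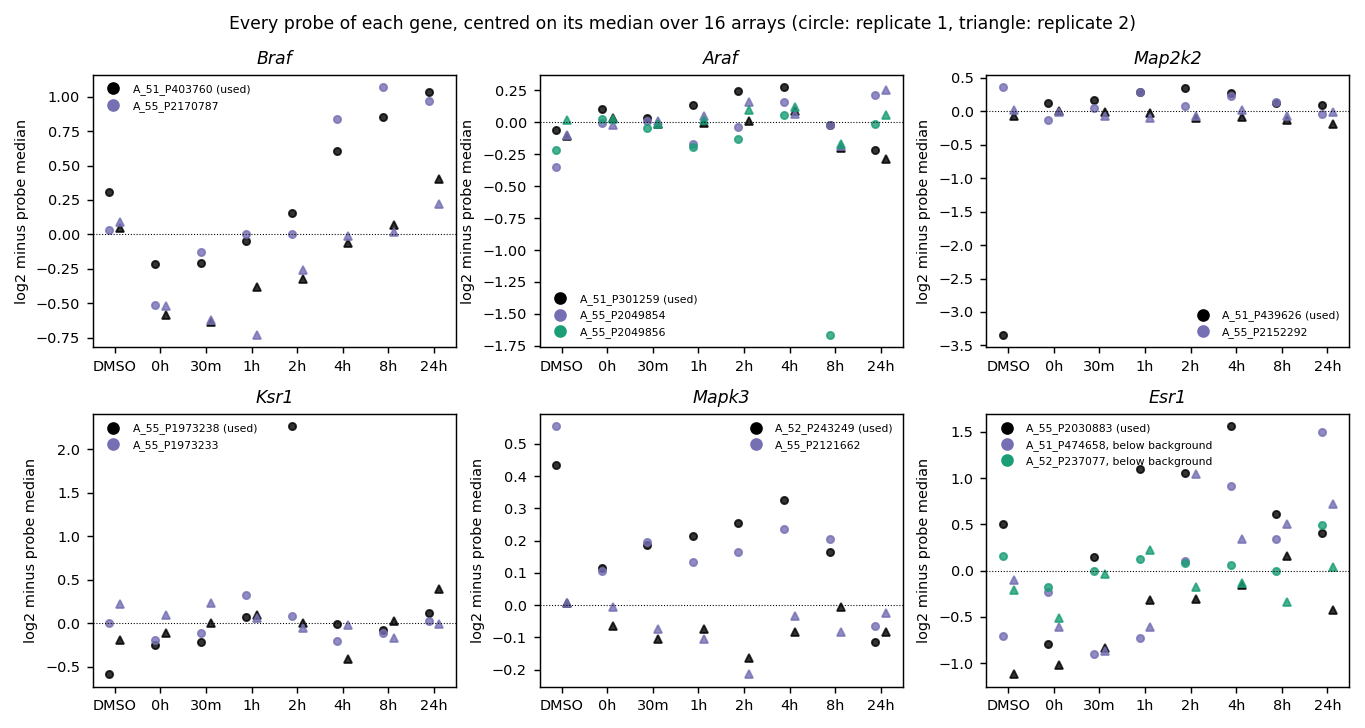
Every probe of the 6 genes with more than 1 probe, as log2 level minus the median of that probe over 16 arrays, by group, with circles for replicate 1 and triangles for replicate 2. The legend names the probe used for each gene in black and the others in colour. The probes of Braf run together, whereas the low DMSO array of Map2k2, the high 2h array of Ksr1 and the low 8h array of Araf appear on 1 probe each.

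Sequence before the listed start of Braf is shown because Braf was the gene called at 24h. Its window holds an arrangement of letters that few promoters have. The 250 bases before that start do not all lie outside the annotated Braf gene. Whether the stretch printed here lies outside it was not determined. RefSeq windows (build GRCm38.p6) reach from 250 bases before to 50 bases after the listed start of a gene, and 6 of the 7 genes have 1 (Mapk3 has no entry in the table). They were searched on both strands for the letters of 8 motifs: the cyclic AMP response element (CRE, TGACGTCA), AP-1 (TGANTCA), ETS (CCGGAAGT), EGR (GCGTGGGCG), E-box (CACGTG), NRF1, GC box (GGGCGG) and CCAAT box (CCAAT). The Braf window holds 2 CRE matches with 10 bases between them, on the minus strand at chr6:39725537-39725562, from 99 to 74 bases before the listed start. Capitals mark the CRE letters.
Braf: TGACGTCAcgcacccaggTGACGTCA
The CRE letters occur in 1.55% of 32851 windows, and at least 2 matches in 0.0304%. The Braf window has 1 GC box and 0 ETS, AP-1 or EGR matches. A match is a description of the sequence. Binding of any factor was not measured here.

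Araf is the X-linked Raf kinase, with weak kinase activity of its own. Its level moved within a narrow range, of 0.43 between the highest and the lowest group mean. The arrays were at 3.07 and 3.03 in DMSO, 3.24 and 3.17 at 0h, 3.17 and 3.12 at 30m, and 3.27 and 3.13 at 1h. They were at 3.38 and 3.14 at 2h and at 3.41 and 3.22 at 4h, then at 3.11 and 2.93 at 8h and at 2.92 and 2.85 at 24h. The 24h arrays lay below all others. The change from 0h to 24h was -0.32 ± 0.13 (95% interval -0.61 to -0.03, limma adjusted p = 0.104), and with the block the adjusted p was 0.0149. It was -0.32 within both slides. The other probes of Araf, which are annotated to another transcript, did not share this: their changes were 0.25 ± 0.14 (A_55_P2049854) and 0.00 ± 0.36 (A_55_P2049856). At 24h against DMSO, A_55_P2049854 was 0.46 ± 0.14 higher (limma adjusted p over all probes = 0.0852, 0.0321 with the block). In that comparison the probe used changed by -0.16 ± 0.13 and A_55_P2049856 by 0.12 ± 0.36, with no call in either fit. On A_55_P2049856, replicate 1 at 8h read 0.65, while its other 15 arrays lay between 2.10 and 2.43.

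Ksr1 is a Raf-related scaffold that holds Raf, Mek and Erk together and has little kinase activity. On 15 of 16 arrays it lay between -2.68 and -1.70, and on replicate 1 at 2h it read 0.17, with -2.09 on replicate 2 of the same group. The 0h arrays were at -2.34 and -2.20 and the 24h arrays at -1.97 and -1.70. The 2h change of 1.31 ± 0.53 (95% interval 0.12 to 2.49, adjusted p = 0.768) was 2.51 on the replicate 1 slide and 0.11 on the replicate 2 slide. Without replicate 2 at 2h the fit called it (2.44 ± 0.23, limma adjusted p = 0.00428). The dimmer Ksr1 probe, A_55_P1973233, read -2.77 and -2.90 at 2h and stayed between -3.05 and -2.52 on all arrays. At 24h the change of Ksr1 was 0.44 ± 0.53 (95% interval -0.75 to 1.62, adjusted p = 0.634) and that of the dimmer probe 0.05 ± 0.17.

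Map2k1 encodes Mek1, which Raf phosphorylates and which in turn phosphorylates Erk. It had the smallest range of group means next to Mapk3, at 0.34 log2. The arrays were at 3.98 and 3.67 in DMSO, 3.96 and 3.94 at 0h, and 3.97 and 3.87 at 30m. They read 3.75 and 3.74 at 1h, 3.85 and 3.88 at 2h, 3.86 and 3.80 at 4h, 3.84 and 3.76 at 8h, and 3.64 and 3.58 at 24h. The 24h arrays were the lowest of all 16. From 0h to 24h the change was -0.34 ± 0.12 (95% interval -0.60 to -0.07, limma adjusted p = 0.0684), with -0.32 and -0.36 within the slides, and with the block the adjusted p was 0.0189. The array has 1 probe for this gene, so a second probe could not be set beside it.

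The 250 bases upstream of Map2k1 are shown as a description of sequence only. They lie on the minus strand at chr9:64253606-64253855 (RefSeq, GRCm38.p6), outside the gene. Whether letters in this window or in that of Braf bear on the level of either gene was not tested. Capitals mark GC boxes (GGGCGG or its reverse complement CCGCCC) and CCAAT boxes (CCAAT or ATTGG).
Map2k1: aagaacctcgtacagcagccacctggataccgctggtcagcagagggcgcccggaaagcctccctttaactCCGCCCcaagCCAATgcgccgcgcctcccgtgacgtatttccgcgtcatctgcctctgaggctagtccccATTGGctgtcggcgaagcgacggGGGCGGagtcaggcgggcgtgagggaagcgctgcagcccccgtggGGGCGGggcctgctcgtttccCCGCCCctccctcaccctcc
The window holds 4 GC boxes, letters found in 32.7% of all windows, and 2 CCAAT boxes, found in 33.8%. It holds 0 CRE matches, and CRE letters occur in only 1.55% of all windows. Across the 8 group means the correlation of Map2k1 with Braf was -0.78 and that of Araf with Braf was -0.62. These are descriptions over groups that share arrays and scaling, and carry no test.

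Map2k2 encodes Mek2, the close relative of Mek1 that does the same step. On 15 of 16 arrays it lay between 3.47 and 4.00, and on replicate 1 of DMSO it read 0.31, with 3.59 on replicate 2. The 0h arrays were at 3.78 and 3.66, and the 24h arrays at 3.75 and 3.47, so these groups overlapped. From DMSO to 0h the fit gave 1.77 ± 0.76 (95% interval 0.09 to 3.45, limma adjusted p = 0.254), which was 3.48 on the replicate 1 slide and 0.07 on the replicate 2 slide. Without replicate 2 of DMSO the lone low array made this a call (3.41 ± 0.26, adjusted p = 0.00056), and likewise 24h against DMSO (3.31, adjusted p = 0.000619). The second probe, A_55_P2152292, was at 3.33 and 2.99 in DMSO and 2.84 and 2.95 at 0h, a change of -0.27 ± 0.18. From 0h to 24h the changes of the probes were -0.11 ± 0.76 and 0.04 ± 0.18. The error of the former holds the low DMSO array, since all groups share 1 estimate of the spread.

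Mapk3 encodes Erk1, the last kinase of the cascade. It was at 4.57 and 4.14 in DMSO, 4.25 and 4.07 at 0h, 4.32 and 4.03 at 30m, and 4.35 and 4.06 at 1h. It read 4.39 and 3.97 at 2h, 4.46 and 4.05 at 4h, 4.30 and 4.13 at 8h, and 4.02 and 4.05 at 24h. Replicate 1 lay above replicate 2 in every group but 24h. The change from 0h to 24h was -0.13 ± 0.21 (95% interval -0.60 to 0.35, limma adjusted p = 0.749), and at 24h the gene stood at -0.33 ± 0.21 against DMSO (adjusted p = 0.388, 0.0752 with the block). The interval at 24h against 0h includes the changes measured for Araf and Map2k1.

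**Figure D3:**
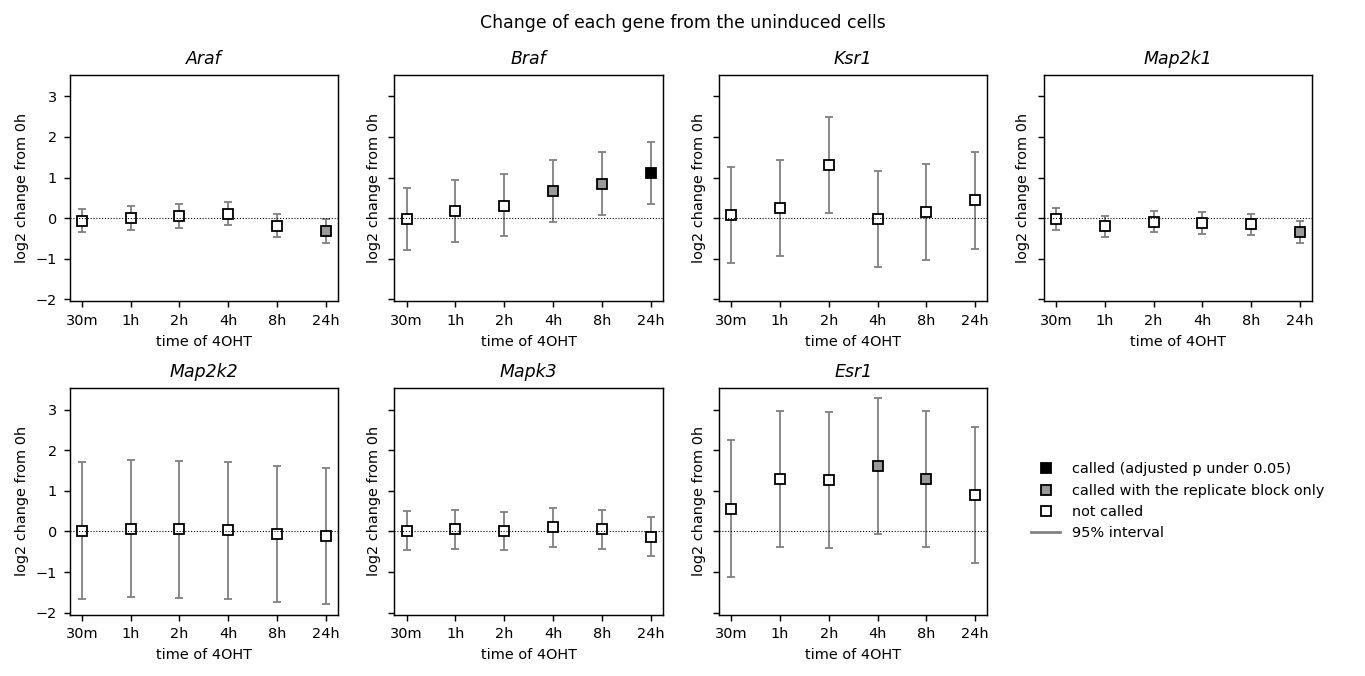
Change of each of the 7 genes from 0h at 6 times of 4OHT, in log2 units, with 95% intervals from the limma fit. The black square (Braf at 24h) was called, grey squares were called with the replicate block only (Braf at 4h and 8h, Esr1 at 4h and 8h, Araf and Map2k1 at 24h), and white squares were not called. The intervals of Map2k2, Ksr1 and Esr1 are the widest.

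Esr1 encodes a nuclear receptor that estrogens and tamoxifen bind. Tamoxifen-inducible fusions usually carry the ligand-binding part of a mutated estrogen receptor. The labels do not say which receptor part this fusion has, and whether any Esr1 probe reads it was not tested. The probe used, A_55_P2030883, was dim but well above background on all 16 arrays, at -3.04 and -4.66 in DMSO and -4.33 and -4.56 at 0h. It read -3.39 and -4.37 at 30m, -2.44 and -3.86 at 1h, -2.49 and -3.85 at 2h, and -1.98 and -3.69 at 4h. It was at -2.93 and -3.38 at 8h and at -3.13 and -3.97 at 24h. All arrays with 4OHT from 1h on lay above both 0h arrays, and replicate 1 lay above replicate 2 in all groups. The change was largest at 4h, at 1.61 ± 0.75 (95% interval -0.06 to 3.28, limma adjusted p = 0.285, 0.0157 with the block), with 2.35 and 0.87 within the slides. At 8h it was 1.29 ± 0.75 (adjusted p = 0.363, 0.0277 with the block). At 24h it was 0.89 ± 0.75, with no call in either fit. The other 2 Esr1 probes, A_51_P474658 and A_52_P237077, were well above background on 0 arrays and give no second reading.

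Over the 7 genes, 0 were called at 0h against DMSO (3.49% of all genes tested), where 1 (Map2k2, from its 1 low array) of the 7 and 2777 of all genes had an unadjusted p under 0.05. At 30m and at 1h 0 were called against backgrounds of 0% and 0%, with 0 of the 7 genes and 96 and 345 of all genes at an unadjusted p under 0.05. At 2h 0 were called (background 0.115%), and 1 of 7 (Ksr1) and 950 of all genes passed by unadjusted p. At 4h 0 were called (3.19%), and 0 of 7 and 2955 of all genes passed by unadjusted p. At 8h 0 were called (6.65%), and 1 of 7 (Braf) and 3463 of all genes passed by unadjusted p. At 24h against 0h, with Braf called, 3 of 7 (Araf, Braf and Map2k1) and 5518 of all genes passed by unadjusted p. At 24h against DMSO 0 were called (11.4%), and 0 of 7 and 3989 of all genes passed by unadjusted p. With the block the counts were 1 of 7 at 0h against DMSO (background 15%), 0 at 30m (0%), 0 at 1h (0.0192%), 0 at 2h (0.479%), 2 at 4h (16.1%), 2 at 8h (21%), 3 at 24h against 0h (39.5%) and 1 at 24h against DMSO (26%). An F test over all 8 groups called 0 of 7 (background 22.9%), and 3 with the block (49.2%): Araf, Braf and Esr1. In the order of group means of each gene, the arrays of neighbours overlapped except for Araf (30m above DMSO, 8h above 24h), Ksr1 (24h above 1h, 1h above 8h), Map2k1 (8h above 1h, 1h above 24h) and Mapk3 (0h above 24h). These gaps are a description, since their share over all genes was not counted. The median change of the 7 genes at 24h was -0.11, beside -0.01 over all genes tested.

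Upstream of Raf, 16 of 17 listed genes were tested, and at 24h against 0h 2 rose and 2 fell (over all genes 10.8% rose and 12.9% fell), with a list median of -0.01, the same as over all genes. With the block 3 were called higher and 4 lower, in a fit that called 39.5% of all genes. Mras, a Ras relative that works with Shoc2 to activate Raf, was at 3.78 and 3.36 at 0h and at 0.83 and 1.72 at 24h. It fell by 2.29 ± 0.38 (adjusted p = 0.00199), and this held without each of the arrays. Against DMSO the 24h change of Mras was -1.16 ± 0.38, called with the block only (adjusted p = 0.077, 0.0325 with the block). Rasgrp1, which loads Ras with GTP, was at -0.18 and 0.39 at 0h and at -2.51 and -1.77 at 24h (-2.24 ± 0.56, adjusted p = 0.0153). Its call was lost without 0h replicate 2 or 24h replicate 1 (adjusted p up to 0.12). The 4h and 8h changes of Rasgrp1 were -1.92 ± 0.56 and -1.97 ± 0.56, called with the block only (adjusted p = 0.0967 and 0.063, 0.00284 and 0.0012 with it). Sos2, another exchange factor of Ras, stood 1.36 ± 0.24 higher at 24h than in DMSO (adjusted p = 0.00756, and 0.0608 without DMSO replicate 1). Against 0h it was 0.93 ± 0.24 higher (adjusted p = 0.0198), a call kept only without 24h replicate 2 (adjusted p from 0.000852 to 0.123). That change, and the 24h changes against 0h of Iqgap1, Map3k8, Rps6ka4, Mknk2, Map3k1, Mapk9, Map3k2 and Greb1 given below, lie past the 10 largest and were added after their values were seen, as were changes called with the block only.

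Among isoforms, scaffolds and modulators of the cascade, 16 of 17 were on the array and tested. At 24h 2 rose and 1 fell (3 higher and 1 lower with the block), with a list median of 0.07. Over all genes 10.8% rose and 12.9% fell, and the block called 39.5%. Pea15a, which binds Erk and keeps it out of the nucleus, went from 0.33 and 0.61 at 0h to 1.61 and 2.10 at 24h (1.38 ± 0.32, adjusted p = 0.0105). This call was lost without 0h replicate 1 or 24h replicate 2 (adjusted p up to 0.0716). Iqgap1, a scaffold for Mek and Erk, was 0.66 ± 0.15 higher at 0h than in DMSO (adjusted p = 0.0405), and this was lost without any 1 of the 4 arrays (adjusted p from 0.121 to 0.229). At 8h it was lower than at 0h by -0.58 ± 0.15 (adjusted p = 0.045), a call kept only without 8h replicate 2 (adjusted p from 0.00707 to 0.37). At 24h it was lower by -0.88 ± 0.15 (adjusted p = 0.00226), and this held without each array. Map3k8, a kinase that can phosphorylate Mek in place of Raf, was 1.43 ± 0.32 higher at 24h than in DMSO (adjusted p = 0.018), a call kept only without 24h replicate 2 (adjusted p from 0.00283 to 0.153). Against 0h it was 0.98 ± 0.32 higher (adjusted p = 0.0475), and the call was lost without 0h replicate 2 or 24h replicate 1 (adjusted p up to 0.355). With samples as attached to the scanner files that change was -0.19.

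Of 8 kinases downstream of Erk, 0 rose and 3 fell at 24h, where 12.9% of all genes fell, and the list median was -0.02. With the block 1 was called higher and 3 lower, in a fit that called 39.5% of all genes. The higher one was Rps6ka2, a kinase of the Rsk family, at 0.72 ± 0.24 (adjusted p = 0.0548, 0.0022 with the block). Rps6ka5, which encodes the nuclear kinase Msk1, was at -1.14 and -0.79 at 0h and at -2.13 and -1.88 at 24h. It fell by 1.03 ± 0.30 (limma adjusted p = 0.0313), and was not called without any 1 of these 4 arrays (adjusted p from 0.0613 to 0.173). Its relative Rps6ka4, which encodes Msk2, was already lower at 8h, at -1.03 and -0.65 against 0.91 and 0.57 at 0h (-1.58 ± 0.26, adjusted p = 0.00924). That call was lost without 0h replicate 1 or 8h replicate 1 (adjusted p up to 0.106). At 24h it was at -0.07 and -0.15, a change of -0.85 ± 0.26 (adjusted p = 0.0408) that was not called without any 1 of the 4 arrays (adjusted p from 0.0707 to 0.21). Mknk2, which encodes a kinase of the translation factor eIF4E, was at -0.46 ± 0.13 against 0h at 24h (adjusted p = 0.0289), kept only without 0h replicate 2 (adjusted p from 0.0309 to 0.197).

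In the list of parallel MAP kinase cascades, all 20 genes were tested. At 24h 4 rose and 3 fell (6 higher and 5 lower with the block), with a list median of -0.06. Over all genes 10.8% rose and 12.9% fell, and the block called 39.5%. Map2k6, a kinase that activates p38, had the largest change that was measured on all arrays. It stood at 1.20 and 1.12 in DMSO, 2.22 and 2.14 at 0h, 1.1 and 1.22 at 4h, -0.44 and 0.83 at 8h, and -0.98 and -0.13 at 24h. The change was -1.99 ± 0.36 at 8h (adjusted p = 0.0126) and -2.74 ± 0.36 at 24h (adjusted p = 0.00061). The 24h call held without each array, and that at 8h only without 8h replicate 2 (adjusted p from 0.000997 to 0.0901). Against DMSO the 24h change was -1.72 ± 0.36 (adjusted p = 0.0135, kept only without 24h replicate 2). Mapk12, which encodes p38 gamma, went from 0.34 and 0.08 at 0h to 2.42 and 1.63 at 24h (1.82 ± 0.25, adjusted p = 0.000893), and this held without each array. Against DMSO it was 1.02 ± 0.25 higher (adjusted p = 0.0289, kept only without 24h replicate 2).

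Mapk6, which encodes the atypical kinase Erk3, was at 3.69 and 3.25 at 0h and at 5.44 and 4.49 at 24h. Its change was 1.5 ± 0.40 (limma adjusted p = 0.0206), and it was lost without 0h replicate 2 or 24h replicate 1 (adjusted p up to 0.175). Against DMSO it was 1.63 ± 0.40 (adjusted p = 0.0259, kept only without 24h replicate 2). Mapk10, which encodes Jnk3, was at -4.04 and -4.15 at 0h and at -2.36 and -3.34 at 24h (1.25 ± 0.39, adjusted p = 0.0392, kept only without 24h replicate 2). Map3k2, which acts above Mek5, was 0.70 ± 0.18 higher at 24h than in DMSO (adjusted p = 0.0299, kept only without 24h replicate 2). Against 0h it was 0.57 ± 0.18 higher (adjusted p = 0.0397, kept only without 0h replicate 2). Map3k1, which acts above Jnk, was at 3.09 and 2.97 at 0h and at 2.10 and 2.20 at 24h, a change of -0.88 ± 0.18 (adjusted p = 0.00545) that held without each array. Mapk9, which encodes Jnk2, changed by -0.44 ± 0.14 (adjusted p = 0.0456), and was not called without any 1 of the 4 arrays (adjusted p from 0.111 to 0.174).

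Of 10 estrogen receptors and classical estrogen target genes, 7 were tested. At 24h 1 was called higher and 1 lower (1 higher and 2 lower with the block), with a list median of -0.01. Over all genes 10.8% rose and 12.9% fell, and the block called 39.5%. Greb1, an estrogen-induced growth gene, was at -0.95 and -0.67 at 0h and at 0.29 and -0.06 at 24h (0.93 ± 0.23, adjusted p = 0.0153), a call lost without 0h replicate 1 or 24h replicate 1 (adjusted p up to 0.123). Cxcl12, a chemokine gene, was at -0.58 and -1.41 at 0h, -2.11 and -3.28 at 4h, and -4.26 and -3.07 at 8h. At 24h it was at -5.68, which was not well above background, and at -3.32. The fit over both arrays called it lower (adjusted p = 0.00837 against 0h and 0.0127 against DMSO), but its size includes the array that was not well above background. On the 1 array measured at 24h the changes were -2.32 ± 0.72 against 0h (adjusted p = 0.0726) and -2.58 ± 0.72 against DMSO (adjusted p = 0.114), not called. The calls were also lost without replicate 1 of 0h or of DMSO. At 30m, 1h and 2h 0 genes of all 5 lists were called, with the block or without it.

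The block added list genes in the other comparisons too. Over all genes tested that fit called 15% at 0h against DMSO, 16.1% at 4h, 21% at 8h and 26% at 24h against DMSO. At 4h, where 0 list genes were called without it, it called 1 higher and 2 lower upstream, 1 higher and 1 lower among the downstream kinases, and 3 lower in the parallel cascades. At 8h it called 2 higher and 1 lower upstream, 2 and 1 among isoforms and scaffolds, 0 and 2 among the downstream kinases, 1 and 3 in the parallel cascades, and 0 and 2 among the estrogen genes. At 0h against DMSO it called 1 higher and 1 lower upstream, 1 and 0 among isoforms and scaffolds, 1 and 1 among the downstream kinases, 0 and 1 in the parallel cascades, and 0 estrogen genes. At 24h against DMSO it called 2 higher and 3 lower upstream, 2 and 1 among isoforms and scaffolds, 1 and 1 among the downstream kinases, 6 and 2 in the parallel cascades, and 1 and 1 among the estrogen genes.

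**Figure D4:**
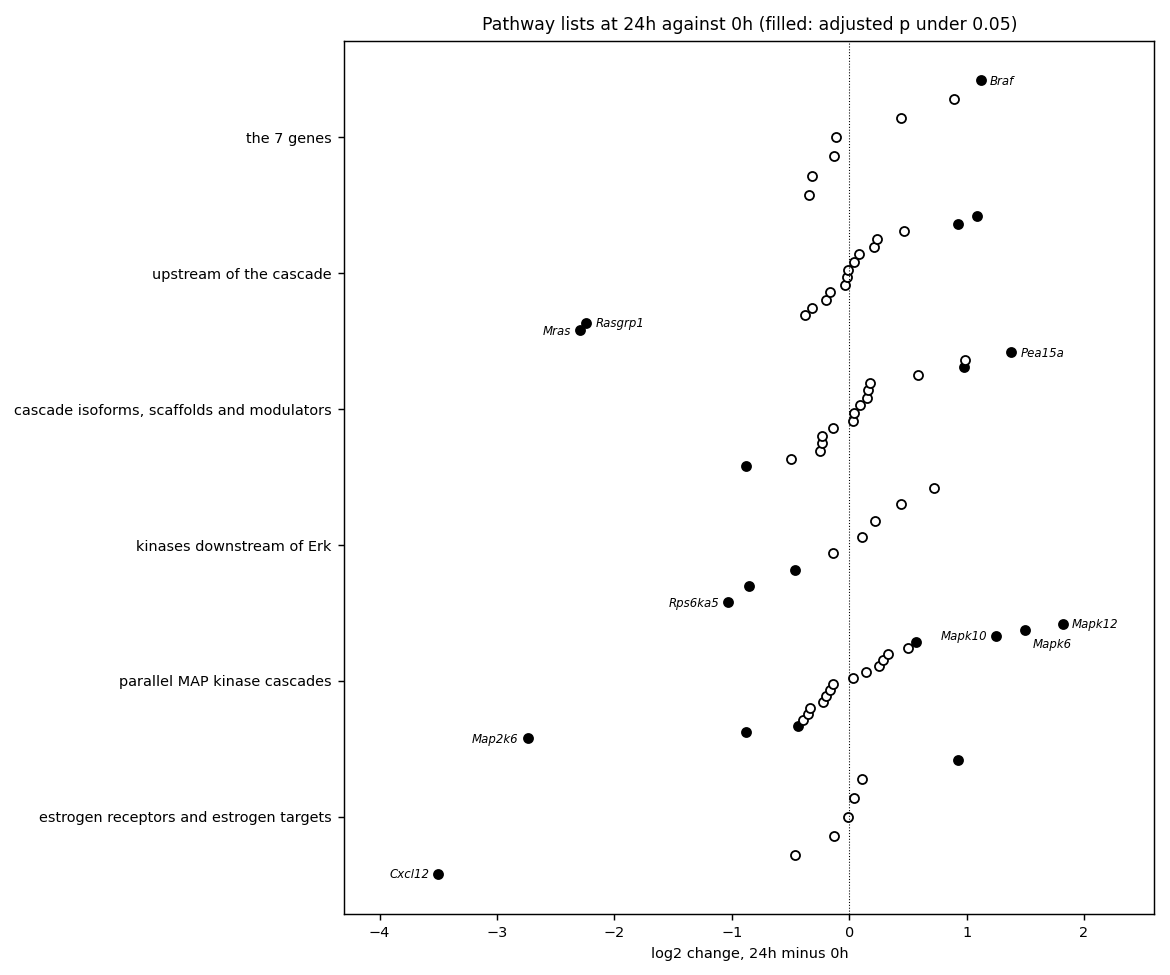
Change from 0h to 24h, in log2 units on the x axis, for the 7 genes and for the tested genes of 5 pathway lists, sorted within each list. Filled points have a limma adjusted p under 0.05, and labels mark Braf and list genes with the largest called changes. Filled points lie on both sides of 0 in 4 of the 5 pathway lists, and only below 0 among the kinases downstream of Erk, where the blocked fit also calls 1 gene above 0. The point of Cxcl12 includes 1 array at 24h that was not well above background.

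The genes whose 8 group means followed Braf most closely, among 13353 genes well above background on all arrays, were Arl6ip5 (Pearson r = 0.995), Pmaip1 (0.99) and Lpar6 (0.988). Arl6ip5 encodes a membrane protein of the endoplasmic reticulum, Pmaip1 the cell death protein Noxa, and Lpar6 a receptor for lysophosphatidic acid. Their changes from 0h to 24h were 1.43, 3.70 and 2.85, beside 1.12 for Braf. A correlation over 8 means of the same arrays, picked as the highest of 13353, is a description with no test.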

How the data were processed

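RNA from 16 samples in 8 groups was hybridised in 1 colour to an Agilent mouse array (probe annotation on mm9) and read with Feature Extraction 11.0.1.1, per the file headers. The labels name Cy5, while the files hold a green channel. The authors deposited scanner files with each spot's processed intensity, already corrected for background, and a value table whose columns equal 1 scanner file each at 100% of spots (tolerance 0.6%, next best at most 4.99%). The table is therefore linear, with no scaling or centring (column medians 32.7 to 52.1). For 4h, the samples' description speaks of minutes. Their title and time point, which were used, give 4h.

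Control and outlier spots (147 to 240 per array) were left out, and 0 spots were saturated. Intensities were taken as log2 minus each array's 75th percentile (445 to 660). Of 55681 probes, 27656 matched 1 RefSeq gene by accession, 28025 none and 0 several. A gene was tested where both arrays of any group had its brightest probe well above background. The 8 group means were fitted together in limma 3.58.1 under R 4.3.3, without block, with Benjamini-Hochberg adjustment over 15658 genes within each comparison, and with a moderated F test. Errors beside changes are standard errors. The script was tested on simulated data. Where a group lacked signal, a change is "at least" the ratio of the bright mean to the detection floor of the dim arrays. Replicate numbers pair the samples: deviations of same-numbered arrays correlated at 0.328 to 0.659 in all 28 pairs of groups, and each number is 1 slide. The block is therefore given where it changes a call of the 7 genes, and for the lists mostly as counts. Fits that leave out 1 array have no block and leave the slides unequal, so the gap between the slides enters them.

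The 7 genes and the 5 lists were chosen with earlier results of these data known. Named from the lists are at most the 10 called genes with the largest change per comparison, and further genes that the text marks as added after their values were seen. Some list genes are counted in their lists and are not reported by name here. The number of arrays limits the precision.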

Additional observations from a re-analysis of the deposited data

How the results depend on the processing

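Counts of the 7 genes called moved with the settings. With the replicate block they were 1 at 0h against DMSO, 2 at 4h, 2 at 8h, 3 at 24h against 0h, 1 at 24h against DMSO and 3 in the F test, against 0, 0, 0, 1, 0 and 0 without it. At 24h against 0h the count was 2 with quantile normalization (Braf and Araf, the latter at -0.33 ± 0.09, adjusted p = 0.0227), 1 with the authors' value table, and 0 with samples as attached to the scanner files, median centring, normexp correction, no filter on dim probes, the mean of all probes, the second-brightest probe (chosen after seeing the data) or only the 2 groups. Leaving out 1 replicate gave 0 to 1 at 0h and at 24h against DMSO (Map2k2), 0 to 1 at 2h (Ksr1), 0 to 1 at 24h against 0h (Braf), 0 to 1 in the F test, and 0 to 0 at 30m, 1h, 4h and 8h. The Braf change at 24h ran from 0.80 to 1.43 over these, and was 1.02 with median centring (adjusted p = 0.227), 1.12 with quantile normalization (0.0232), 1.07 with normexp (0.0537), 1.12 without the filter (0.0528), 1.11 over all probes (0.0518), 1.11 on the second-brightest probe (0.0756) and 1.12 in the 2 groups alone (0.0854). As attached it was -0.19. Of 888 values of the 7 genes under alternatives, 854 kept their side of the threshold where there was a test. A further 9 lost the call, 12 gained it and 1 (Braf, as attached) reversed. Another 12 (all within 1 slide, with no test) moved by more than the standard error. In 111 of the 888, most of them among the 854, the sign changed with no call in either fit. Of 433 alternatives for the 31 called changes of list genes, 264 kept the call, 166 lost it (24 with only the 2 groups, 18 with median centring) and 3 reversed, all at 24h as attached to the scanner files (Rasgrp1 0.45, Map3k8 -0.19, Mapk9 0.04). With that attachment 0 of the 31 kept the call, and with the replicate block all 31 did. An alternative that names probes from a column of the scanner files was planned and not run, since the columns used here hold accessions and no gene names. Median centring moved the median change of all genes at 2h from 0.04 to -0.1, its largest shift, and at 24h against 0h from -0.01 to -0.1.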

Other observations

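The single arrays that set Map2k2 and Ksr1 apart have counterparts elsewhere on the array. A departure was counted where 1 array lay at least 2 log2 units from the median of the other arrays of that gene and those all lay within 1 of it. Of 15658 genes tested, 115 (0.734%) had such an array, 93 of them in replicate 1 arrays and 22 in replicate 2 arrays. The count per array ran from 0 to 21, and the highest was replicate 1 of DMSO (21), followed by replicate 1 of 8h (18) and of 30m (17). Of the 115 genes, 13 had another probe above background on all arrays, and on 2 of those the other probe departed by at least 1 in the same direction. Map2k2 departed by -3.35 on replicate 1 of DMSO, where its other probe read 0.38 above its own median. Ksr1 departed by 2.26 on replicate 1 of 2h, where its other probe read 0.10 above.

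The pooled SD between replicates differed among the 7 genes. It was 0.09 for Map2k1, 0.10 for Araf, 0.22 for Mapk3, 0.37 for Braf, 0.59 for Ksr1, 0.84 for Map2k2 and 0.84 for Esr1. With samples as attached to the scanner files, it was smaller for Mapk3 (0.12) and Esr1 (0.75). It was larger for Map2k1 (0.1), Araf (0.16), Braf (0.53), Ksr1 (0.72) and Map2k2 (0.93).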
